A study of Mus musculus with 36 samples.

Results

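Wild type mouse embryonic fibroblasts labelled time 2 were compared with wild type fibroblasts labelled time 0, across all genes read by the arrays. The members were chosen from the sample labels alone: the 4 arrays of replicates 1 and 2 at the 2 times, of 36 arrays in the series. Time 2 was represented by replicates 1 and 2, so the time 0 arrays of the same numbers were the reference, and time 0 replicates 3 and 4 served as a check. Fibroblasts lacking PKBa (Akt1) at times 2 and 0, replicates 1 and 2, were used for one further comparison, and wild type times 6, 24 and 48 for the later course. Per the labels the cells came from embryos aged 13.5 days born of crosses between mice heterozygous for PKBa. They were used between passages 15 and 20 and kept in DMEM, a standard growth medium, with 10% foetal calf serum. Such cultures are a mixture of mesenchymal cells from the embryo's trunk and limbs, and the labels do not say how many embryos stand behind a genotype. The series title speaks of DMEM treatment. The protocol also describes an adipocyte induction medium with isobutylmethylxanthine, dexamethasone and insulin, and the labels do not say which of them these arrays received or in which unit the times are given.

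Fibroblasts given fresh medium or hormones switch on a first wave of genes that needs no new protein. Its members include transcription factors of the Fos, Jun, Egr, Klf and Nr4a families, and inhibitors that shut the signals off again. Isobutylmethylxanthine blocks the breakdown of cyclic AMP, which acts through protein kinase A on the factor CREB and its site in promoters, the cAMP response element. Dexamethasone acts through the glucocorticoid receptor, and insulin through PI3 kinase and Akt, which restrain FoxO factors. Cebpb and Cebpd, 2 transcription factors that rise early in adipogenesis, precede the master regulator Pparg.

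Signals were read on a linear scale, and each difference below is a difference of log2(signal + 32) between time 2 and time 0, ± its standard error from limma's moderated test. A gene passed if its p, adjusted by Benjamini and Hochberg over the 7436 genes tested, was under 0.05. Array medians ran from 134 to 145 over the series. The time 2 arrays correlated with each other at 0.993 and the time 0 arrays at 0.997 over the tested genes, and a time 2 with a time 0 array of replicates 1 and 2 at 0.958 to 0.962. Time 0 replicates 3 and 4 correlated with time 0 replicates 1 and 2 at 0.963 to 0.967, so replicate pairs of one group stood nearly as far apart as the 2 times. The labels do not say whether the arrays of a pair came from separate cultures, and the p-values therefore measure the spread between these arrays, which may be technical. An exact permutation test of 2 against 2 arrays cannot go below p = 0.33 (two-sided), so no such test was used.

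The cells carried the markers of fibroblasts. All 14 fibroblast markers were bright enough to test, and Col1a2, a chain of type I collagen, gave signals of 14151 and 15629 at time 2 and 14753 and 15084 at time 0 (difference -0.00 ± 0.08, adjusted p = 0.98). None of these markers rose by limma (0 at an unadjusted p under 0.05) and 5 fell, among them the growth factor receptors Pdgfrb (-0.97 ± 0.09) and Pdgfra (-0.92 ± 0.08). The falls were 35.7% of these markers, beside 23.7% of all tested genes. Akt1 stood at 1364 and 1362 at time 2 and 1334 and 1354 at time 0 (0.02 ± 0.10, adjusted p = 0.91). Mesothelial markers were also present, with Upk3b, a membrane protein of mesothelium and urothelium, at 4119 and 4689 at time 2 and 4804 and 4911 at time 0. Markers of skeletal muscle, neurons, adipocytes, macrophages, endothelium and keratinocytes were low. Of 7 endothelial markers 6 stayed under a signal of 100 at both times. Their summed signal was 1015 and 1055 at time 2 and 626 and 645 at time 0, and the rise lay in the receptor gene Kdr (795 and 839 against 435 and 446). The summed signal of macrophage markers was 731 and 771 at time 2 and 551 and 551 at time 0, with Cd14 at 255 and 299 against 109 and 119. That of keratinocyte and epithelial markers was 825 and 913 at time 2 and 666 and 684 at time 0, with Krt15 at 389.9 and 511 against 287 and 258. The part of these genes in the other results was not tested. Fewer cells of a type and less RNA per cell cannot be told apart in such samples.

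By time 2, the signalling inhibitors Rgs2, Dusp1 and Errfi1, the orphan nuclear receptors Nr4a1 and Nr4a2, the metallothioneins Mt1 and Mt2, the hyaluronan synthase Has1 and the mevalonate pathway kinases Mvk and Pmvk had risen in the wild type fibroblasts. The insulin receptor substrate Irs1, the growth factor Bmp4, the aryl hydrocarbon receptor Ahr and the redox regulator Txnip had fallen. Of 7436 genes tested, 2412 (32.4%) passed, 649 higher (8.73%) and 1763 lower (23.7%) at time 2. Most changes were small: the genes that rose had a median difference of 0.38 and those that fell of -0.36, against -0.05 over all tested genes. The larger changes went mainly upwards. 94 genes (1.26%) rose at least 2-fold and 39 (0.524%) fell at least 2-fold, while 27 rose and 3 fell at least 4-fold. The balance depended on the scaling: 26.9% of the genes that passed were higher on the deposited scale and 41.0% after quantile normalization. Arrays of one group fall into replicate pairs (1 with 2, 3 with 4), and with that pair as a random block in a fit of all arrays 408 genes passed, 160 higher and 248 lower. Those included 126 of the 133 genes that had changed at least 2-fold, but 40 of the genes named in the text that had passed did not pass in it. That fit also took time 0 from replicates 1 to 4, so its reference changed along with the block.

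**Figure D1:**
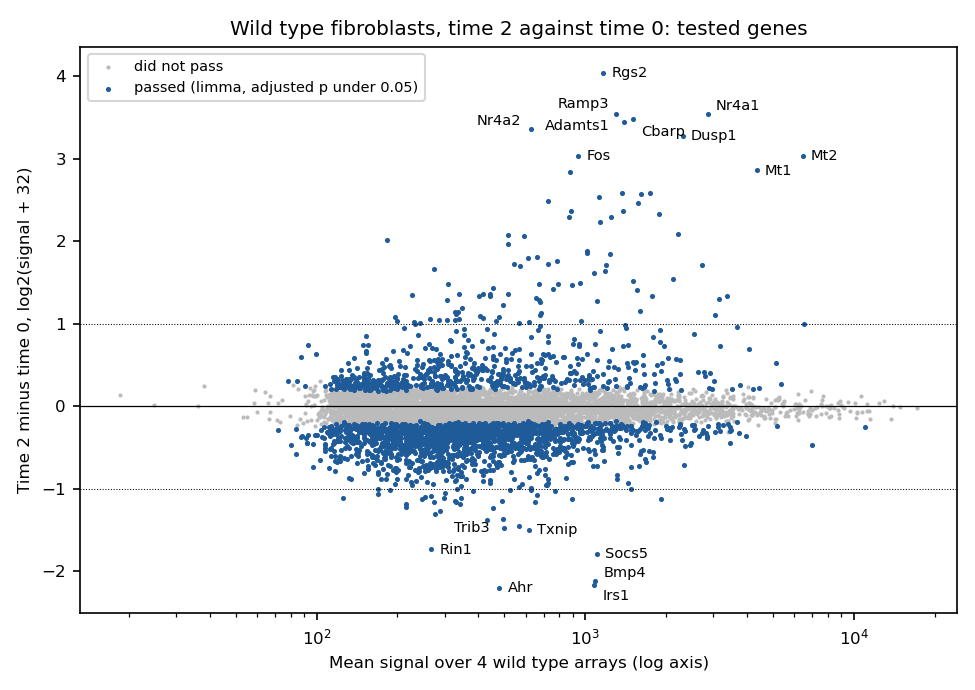
Each point is 1 of 7436 tested genes, with its mean signal over the 4 wild type arrays on a log axis and the difference of log2(signal + 32) between time 2 and time 0 on the vertical axis. Filled points passed; the labelled genes reach 4.04 for Rgs2 at the top and -2.20 for Ahr at the bottom, and the points at least 4-fold up outnumber those at least 4-fold down, 27 to 3.

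Genes known to respond to cyclic AMP and CREB rose together. Of 18 tested genes of this list, 12 rose and 1 fell, with a median difference of 1.42 against -0.05 over all tested genes. Those were shares of 66.7% and 5.56%, beside 8.73% and 23.7% of all tested genes. Rgs2, which switches off G proteins coupled to receptors, had signals of 2241 and 2227 in the time 2 arrays and 114 and 97.1 in the time 0 arrays. On the log2(signal + 32) scale, which understates the change of dim genes, its rise (4.04 ± 0.09, adjusted p = 1.7e-20) was 16.5-fold and the largest among tested genes, and a dimmer Rgs2 probe set gave 3.79. The orphan nuclear receptor Nr4a1 stood at 5694 and 4886 at time 2 and 417 and 431 at time 0 (3.54 ± 0.09, adjusted p = 1.9e-19). Its relative Nr4a2 stood at 1067 and 1274 against 88.6 and 81.2 (3.36 ± 0.11, adjusted p = 1.0e-17). The 2 time 2 arrays lay far above both time 0 arrays for each of these genes, whereas the third member of the family, Nr4a3, gave 0.17 ± 0.08 (adjusted p = 0.12).

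Ramp3, a partner protein that sets the ligand choice of calcitonin-family receptors, gave 2390.1 and 2477 at time 2 and 176 and 185 at time 0 (3.54 ± 0.09, adjusted p = 6.2e-20). Dusp1, a phosphatase that inactivates MAP kinases, gave 4093 and 4327 at time 2 and 399.7 and 411 at time 0 (3.28 ± 0.07, adjusted p = 6.9e-21). Genes that damp the cyclic AMP signal rose as well: Pde4b, which degrades cyclic AMP, by 1.49 ± 0.07, and Crem, whose short forms repress CREB sites, by 1.36 ± 0.09. Sik1, a kinase that holds back CREB's co-activators, rose by 0.44 ± 0.08. Crtc2, one of those co-activators, was the member that fell (-0.40 ± 0.09). Cited2, Akap12, Pde4a and Pde7a did not pass, with differences from -0.13 to 0.21.

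Promoters of the genes with the highest differences are shown because CREB's site is known. These genes were chosen by their differences, so their rising together follows from the choice. 17 of the 20 genes with the highest differences had a window in the RefSeq table (build GRCm38.p6), 250 bases before and 50 after the start of transcription. The search covered TGACGTCA, the full cAMP response element, and TGACG, its short form, on both strands; each full element holds the short form on either strand. The short form was present in windows of 14 of those genes and the full element in 4 (Dusp1, Slc25a25, Has1 and Errfi1). Counted per gene in the same way, 37.4% of tested genes with a window held the short form and 3.67% the full element, and of genes that rose at least 2-fold 59.7% and 11.1%. A gene with several start sites has several windows, so shares per window are lower. Among all 32851 windows, 20.8% held the short form and 1.79% the full element. Among windows of tested genes the shares were 32.2% and 3.04%. Windows of genes that rose at least 2-fold held them in 46.9% and 8.16%, and windows of genes that fell at least 2-fold in 26% and 2%. Of the other motifs searched, the AP-1 site TGANTCA stood in 8.16% of the windows of 2-fold risers and 4.75% of those of tested genes. The metal response core TGCGCNC stood in 24.5% and 27.5%, its form TGCACNC in 16.3% and 12.7%, and the E-box CACGTG in 13.3% and 10.3%. The CArG box of the serum response factor stood in none of the windows of 2-fold risers and in 1.25% of those of tested genes. These shares describe letters, not binding. Only windows that hold the short form are printed, and of these only the ones of the genes with the highest differences, down to Dusp1. Windows with the full element in Slc25a25, Has1 and Errfi1 are thus not printed. The order is that of the gene's difference, 5′ to 3′ on the gene's strand, with the short form on either strand in capitals.
Rgs2 (chr1:144004100-144004399, minus strand): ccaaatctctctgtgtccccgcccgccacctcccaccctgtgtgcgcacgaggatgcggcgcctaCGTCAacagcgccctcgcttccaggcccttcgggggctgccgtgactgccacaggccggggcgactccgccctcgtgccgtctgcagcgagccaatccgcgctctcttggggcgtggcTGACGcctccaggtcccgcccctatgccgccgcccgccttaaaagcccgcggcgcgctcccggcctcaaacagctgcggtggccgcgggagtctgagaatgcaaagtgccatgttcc
Nr4a1 (chr15:101266596-101266895, plus strand): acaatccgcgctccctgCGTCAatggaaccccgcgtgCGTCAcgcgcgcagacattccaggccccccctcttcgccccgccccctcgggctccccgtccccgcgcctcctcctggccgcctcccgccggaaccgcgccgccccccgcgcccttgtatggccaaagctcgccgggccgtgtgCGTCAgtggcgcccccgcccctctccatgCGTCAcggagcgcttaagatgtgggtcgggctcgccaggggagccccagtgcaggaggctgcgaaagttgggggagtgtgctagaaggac
Cbarp (chr10:80137338-80137637, minus strand): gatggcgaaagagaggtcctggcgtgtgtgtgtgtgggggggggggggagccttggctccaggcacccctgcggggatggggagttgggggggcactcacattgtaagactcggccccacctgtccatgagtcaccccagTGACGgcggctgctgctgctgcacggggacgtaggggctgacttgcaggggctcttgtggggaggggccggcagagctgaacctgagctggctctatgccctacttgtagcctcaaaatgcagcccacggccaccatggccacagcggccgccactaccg
Adamts1 (chr16:85803064-85803363, minus strand): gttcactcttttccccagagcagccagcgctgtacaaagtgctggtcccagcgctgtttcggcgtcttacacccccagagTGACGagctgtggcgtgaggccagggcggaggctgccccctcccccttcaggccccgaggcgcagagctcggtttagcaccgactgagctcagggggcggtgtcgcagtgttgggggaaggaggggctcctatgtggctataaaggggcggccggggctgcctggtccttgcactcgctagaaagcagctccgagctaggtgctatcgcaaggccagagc
Nr4a2 (chr2:57123954-57124253, minus strand): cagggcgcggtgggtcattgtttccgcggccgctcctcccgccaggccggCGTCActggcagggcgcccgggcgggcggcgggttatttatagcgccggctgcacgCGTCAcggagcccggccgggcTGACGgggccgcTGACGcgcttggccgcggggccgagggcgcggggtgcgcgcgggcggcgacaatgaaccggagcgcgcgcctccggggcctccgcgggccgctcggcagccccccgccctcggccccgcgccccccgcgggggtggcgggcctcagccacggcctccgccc
Dusp1 (chr17:26508423-26508722, minus strand): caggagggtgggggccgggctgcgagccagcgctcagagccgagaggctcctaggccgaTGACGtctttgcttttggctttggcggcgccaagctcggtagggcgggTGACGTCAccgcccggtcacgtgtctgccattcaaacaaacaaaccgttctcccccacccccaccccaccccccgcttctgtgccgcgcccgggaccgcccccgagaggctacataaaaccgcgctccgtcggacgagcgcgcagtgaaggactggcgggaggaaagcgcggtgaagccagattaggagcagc
Nr4a1 and Nr4a2 each hold the short form at 4 places, Rgs2 at 2, and Dusp1 at 3, 2 of which overlap in its full element. The window of Ramp3, whose difference was as large as that of Nr4a1, holds neither form and is not printed. Cbarp, an inhibitor of voltage-gated calcium channels, stood at 2787 and 2804 at time 2 and 232 and 209.8 at time 0 (3.49 ± 0.09), and its window at the other start site, not printed, held no short form.

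**Figure D2:**
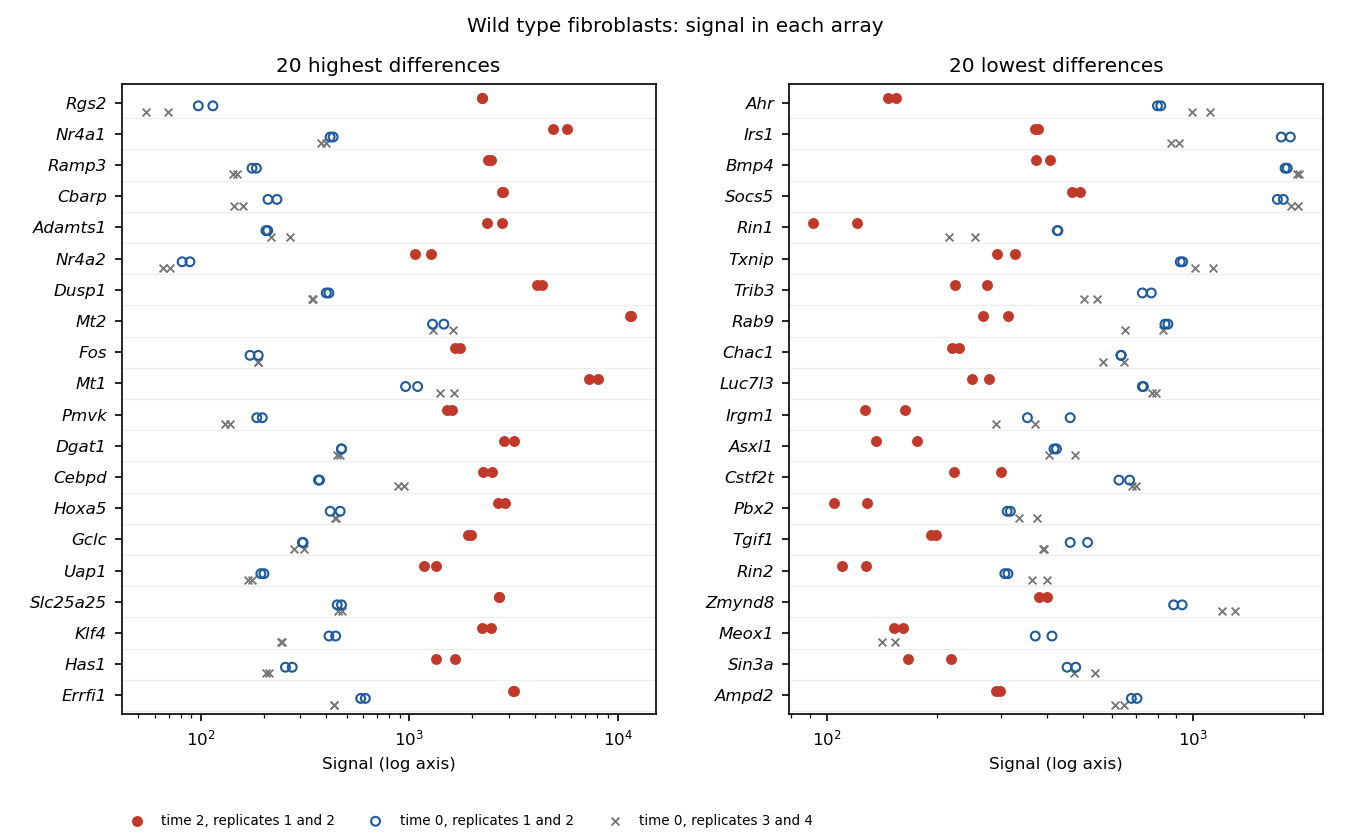
Signal in each wild type array, on a log axis, for the 20 genes with the highest and the 20 with the lowest differences that passed and did not overlap between times (66% of all tested genes did not overlap). Filled circles are time 2 replicates 1 and 2, open circles time 0 replicates 1 and 2, and crosses time 0 replicates 3 and 4; in Rgs2 the filled circles at 2241 and 2227 stand apart from the open ones at 114 and 97.1, and in Meox1 the crosses lie with the filled circles.

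Among first-wave transcription factors Fos, Junb and Klf4 rose, and smaller falls stood beside them. Ier3 and Ccn1, also given here, do not encode transcription factors. Of 32 tested genes of the early transcription factor list, 14 rose (43.75%) and 11 fell (34.4%), with a median of 0.10. Of all tested genes 8.73% rose and 23.7% fell. With the pair block 11 genes of the list rose and 0 fell, so that none of the falls given here passed in it. Fos, a subunit of the factor AP-1, stood at 1661 and 1752 at time 2 and 172 and 188 at time 0 (3.03 ± 0.09, adjusted p = 7.4e-19). Junb, a partner of Fos, rose by 2.29 ± 0.09, and Fosl2 by 1.10 ± 0.10. Klf4, a zinc-finger factor, rose by 2.37 ± 0.09, the small Maf protein gene Maff by 1.73 ± 0.08, and the survival gene Ier3 by 1.72 ± 0.09. In contrast Jun, another AP-1 subunit, gave 222 and 268 at time 2 and 473 and 479 at time 0 and fell by 0.88 ± 0.08 (adjusted p = 3.7e-09). Klf6 (-0.99 ± 0.08), the matricellular gene Ccn1 (-0.68 ± 0.08, but 0.43 against time 0 replicates 3 and 4), Klf10 (-0.56 ± 0.09), the serum response factor Srf (-0.52 ± 0.09) and Myc (-0.33 ± 0.10) fell too. Egr1, the founding member of its family, stood at 451 and 471 at time 2 and 473 and 493 at time 0 and did not pass (adjusted p = 0.64), with -1.02 against time 0 replicates 3 and 4. Egr3, Egr4 and Ier2 did not pass either.

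Some genes with large differences were too dim on average to be tested. Whether they belong to the first wave was not tested. Without the filter on low signal, 638 of the 4957 genes left out passed, 13 of them higher and 2 lower by 2-fold or more. Those named here were chosen after their values were seen. Il6, a cytokine, had 336 and 469.6 at time 2 and 28.8 and 31.3 at time 0, and the growth factor Ereg, a ligand of the EGF receptor, 552 and 584 against 61.9 and 52.8. The AP-1 genes Fosb (147 and 169 against 33.1 and 41.8) and Atf3 (239.6 and 243 against 80.6 and 79.7) were also higher, and the mesenchymal factor Tcf21 was lower (117 and 117 against 428 and 442).

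Inhibitors that feed back on receptor signalling were mostly higher. 10 of 17 tested genes (58.8%) rose and 5 (29.4%) fell (median 0.40), beside 8.73% and 23.7% of all tested genes. With the random pair block 6 rose and 0 fell. Beside Rgs2 and Dusp1 the genes that rose included Errfi1, an inhibitor of the EGF receptor (3144 and 3168 at time 2 against 585 and 615 at time 0, 2.33 ± 0.08). The cytokine signalling inhibitors Socs3 (2.29 ± 0.09), Socs2 (1.07 ± 0.08) and Socs1 (0.95 ± 0.10) rose too. Socs2 was the exception in the check: it stood at 587 and 564 at time 2, 249.8 and 265 in time 0 replicates 1 and 2, and 1006 and 868 in replicates 3 and 4. The inhibitors of the FGF and Ras route gave smaller differences the other way, none of which passed with the pair block. Spry1 (-0.52 ± 0.08), Spred1 (-0.50 ± 0.11) and Spred2 (-0.40 ± 0.08) fell, although another Spred2 probe set gave 0.00 and Spry1 gave 0.01 against time 0 replicates 3 and 4. The kinase phosphatase Dusp6 (0.09, adjusted p = 0.46) and Spry2 (0.06, adjusted p = 0.76) did not pass.

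Most targets of the glucocorticoid receptor rose. 13 of 18 tested genes rose and 0 fell by limma (0 at an unadjusted p under 0.05), with a median of 0.90. The rises were 72.2% of the list, beside 8.73% of all tested genes. The random pair block gave 11 rises, and 2 genes fell against time 0 replicates 3 and 4 and 1 with the mean of all probe sets. Dusp1, Per1 and Sgk1 stand in the list of cAMP response genes as well, so the lists do not count independent genes. Fkbp5, a chaperone of the glucocorticoid receptor, gave 1108 and 1163 at time 2 and 321 and 322 at time 0 (1.72 ± 0.08, adjusted p = 4.3e-14). The kinase gene Sgk1 rose by 2.07 ± 0.10, the anti-inflammatory factor Tsc22d3 by 0.64 ± 0.08 and the Krüppel-like factor Klf9 by 0.78 ± 0.08. Glul, Saa3, Angptl4, Nfkbia and Tgm2 did not pass, with differences from -0.23 to 0.30.

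Metallothioneins, small proteins that bind zinc and copper, were among the brightest genes of the arrays that rose. Mt2 stood at 11629 and 11429 at time 2 and 1466 and 1293 at time 0 (3.04 ± 0.11, adjusted p = 1.5e-16), and Mt1 at 7256 and 8072 against 1097 and 960.1 (2.86 ± 0.11). The 2 genes are close relatives, and cross-hybridisation between their probe sets was not tested. The zinc exporter Slc30a1 rose by 0.47 ± 0.09. Gclc, the catalytic subunit of the first enzyme of glutathione synthesis, stood at 1910.1 and 1984 against 307 and 309 (2.54 ± 0.07, adjusted p = 1.2e-18). Srxn1, which repairs peroxiredoxins, rose by 1.36 ± 0.11. Other targets of the oxidative stress factor NRF2 did not pass: Gclm, the partner subunit of Gclc, gave -0.07 ± 0.08, Hmox1 0.14 ± 0.08 and Txnrd1 0.20 ± 0.08. Altogether 5 of 17 tested genes of this list rose (29.4%) and 1 fell (5.88%), with a median of 0.13. Of all tested genes 8.73% rose and 23.7% fell. In the check against time 0 replicates 3 and 4, 4 rose and 5 fell.

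The early adipogenic regulators Cebpd and Cebpb rose, while markers of mature adipocytes stayed dim. Cebpd stood at 2253 and 2484 at time 2 and 367 and 371 at time 0 (2.58 ± 0.09, adjusted p = 4.9e-17), and Cebpb at 4904 and 4791 against 1834 and 1972 (1.34 ± 0.10). Cebpd was already higher in time 0 replicates 3 and 4 (882 and 944), against which the difference was 1.34. Klf5, a factor that acts between the C/EBP proteins and Pparg, rose by 1.14 ± 0.08, and Foxc2 by 0.87 ± 0.09. Cebpa rose by 0.24 ± 0.09, and Nr3c1, the glucocorticoid receptor, fell by 0.39 ± 0.08. 6 of 17 tested genes of the list rose (35.3%) and 3 fell (17.6%), beside 8.73% and 23.7% of all tested genes (median 0.15). With the random pair block 3 rose and 1 fell. Of 6 adipocyte markers read by the arrays, 5 were under a signal of 100 at both times.

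Single genes of the synthesis of hyaluronan, a large sugar polymer of the matrix, were among the large rises. No gene list covered the whole pathway. Its synthases stood in the list of matrix proteases, inhibitors and hyaluronan synthases, whose median was 0.01 and whose counts are given below. Has1, a hyaluronan synthase, stood at 1666 and 1339 at time 2 and 254 and 274 at time 0 (2.36 ± 0.10, adjusted p = 1.4e-15), whereas Has2 did not pass (0.24 ± 0.11, adjusted p = 0.093, with 1.74 against time 0 replicates 3 and 4). Uap1, which makes UDP-N-acetylglucosamine, stood at 1176 and 1344 against 201 and 194 (2.49 ± 0.08). Ugdh, which makes UDP-glucuronic acid, stood at 3649 and 3546 against 825 and 816 (2.09 ± 0.09), and Gfpt2, the entry enzyme of the hexosamine route, rose by 1.00 ± 0.12. Ugdh and Gfpt2 were chosen after their values were seen. Adamts1, a protease that cuts the hyaluronan-binding proteoglycan versican, stood at 2367 and 2803 at time 2 and 209 and 205 at time 0 (3.45 ± 0.08, adjusted p = 5.4e-20). Its inhibitor family member Timp1 rose by 0.96 ± 0.09. 16 of 19 collagen chain genes, 16 of 21 contractile and actin genes and 19 of 20 endoplasmic reticulum chaperones did not pass, with medians of -0.00, -0.11 and 0.05. The shares were 84.2%, 76.2% and 95%, beside 67.6% of all tested genes that did not pass. Against time 0 replicates 3 and 4, 11 collagen chain genes and 9 contractile genes rose.

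Lipid and sugar metabolism gave single large rises, and the falls beside them depended on the time 0 pair. Mvk and Pmvk are kinases that act in sequence on mevalonate, the sterol precursor. Pmvk stood at 1520.4 and 1602 at time 2 and 197 and 185 at time 0 (2.84 ± 0.09, adjusted p = 2.2e-18), and Mvk at 1934 and 1960.1 against 488 and 549 (1.85 ± 0.08). Most other genes of sterol synthesis that passed fell, among them Fdft1 (-0.83 ± 0.07) and Hmgcs1 (-0.71 ± 0.11), so that 4 of 25 tested genes rose and 10 fell (median -0.13). The shares were 16% and 40%, beside 8.73% and 23.7% of all tested genes. Those falls were lost in the alternatives that took time 0 replicates 3 and 4 into the reference. With all arrays in group means 7 genes rose and 0 fell, and with the random pair block 3 and 0. Against time 0 replicates 3 and 4 alone 18 rose and 0 fell, and Fdft1 and Hmgcs1 gave -0.05 and 0.07. Dgat1, which makes triglyceride, stood at 2857 and 3171 at time 2 and 473 and 473 at time 0 (2.59 ± 0.08). The mitochondrial ATP-magnesium carrier Slc25a25 rose by 2.47 ± 0.09. Hk2, a hexokinase, rose by 1.41 ± 0.08 and the glucose transporter Slc2a1 by 0.98 ± 0.08. Of 16 tested genes of glucose uptake and glycolysis 8 (50%) did not pass, beside 67.6% of all tested genes (median -0.10). That list held 4 rises and 4 falls, 25% each, beside 8.73% and 23.7% of all tested genes. The counts were 2 and 0 with the pair block, and 9 and 1 against time 0 replicates 3 and 4.

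Clock repressors were among the genes that rose. Per1, a repressor of the clock, stood at 943 and 999.5 at time 2 and 197 and 219 at time 0 (2.07 ± 0.09, adjusted p = 1.4e-15), and the repressors Nfil3 (1.86 ± 0.07), Cry2 (1.12 ± 0.08) and Per2 (0.36 ± 0.10) rose as well. Arntl, the clock's activator, fell by 0.44 ± 0.08 (-0.04 against time 0 replicates 3 and 4) and its repressor Nr1d1 by 0.48 ± 0.08. Of 14 tested clock genes 6 rose and 4 fell (median 0.14). Those were shares of 42.9% and 28.6%, beside 8.73% and 23.7% of all tested genes. The random pair block left 3 rises and 0 falls, so the falls of Arntl and Nr1d1 did not pass in it. Hoxa5, a homeobox gene of positional identity, stood at 2896 and 2671 at time 2 and 417 and 466 at time 0 (2.57 ± 0.10, adjusted p = 1.5e-16).

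**Figure D3:**
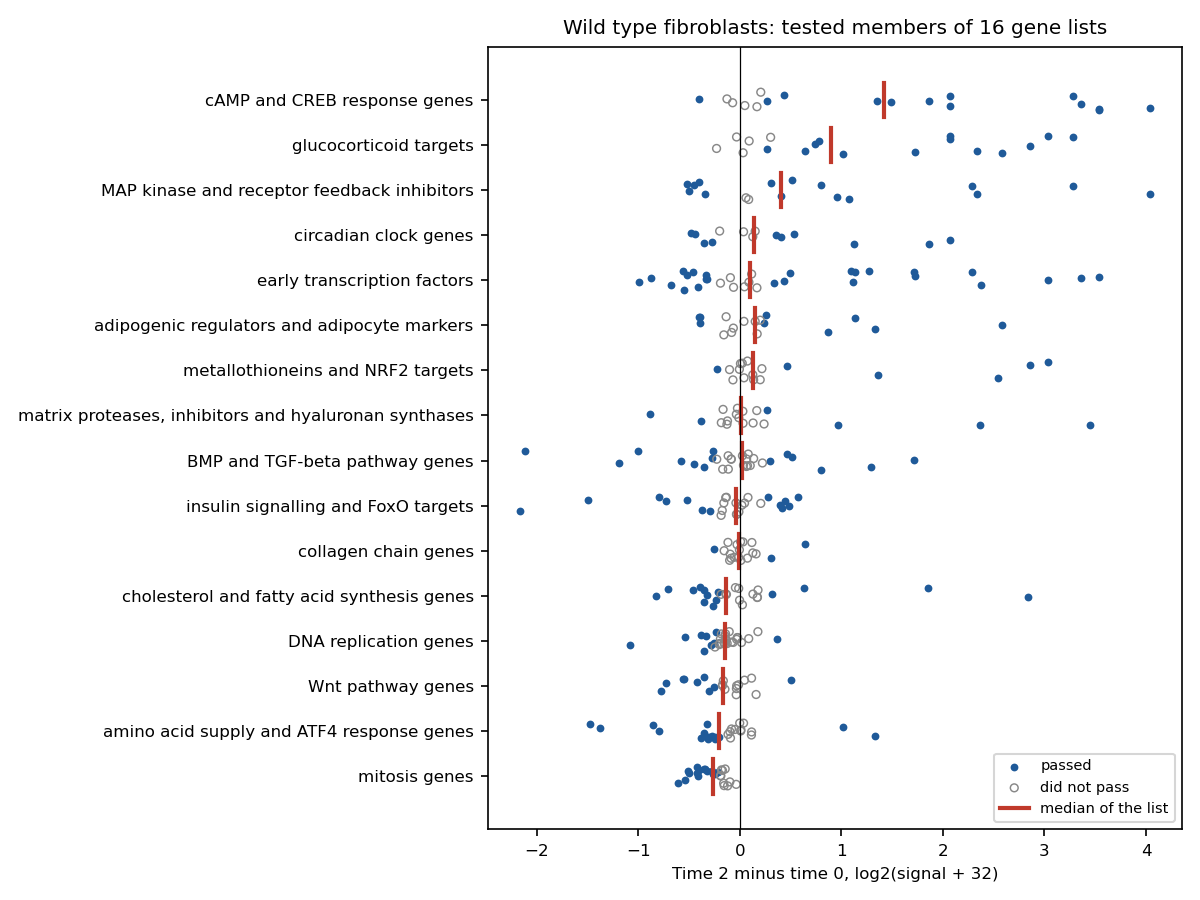
Differences of log2(signal + 32) between time 2 and time 0 for every tested member of 16 gene lists, 1 row per list; filled points passed, open points did not, and the vertical bar is the list's median. The glucocorticoid and cAMP rows lie mostly right of 0 with medians of 0.90 and 1.42, and the mitosis row lies left of 0 with a median of -0.27.

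Irs1 was among the largest falls, while the list of insulin signalling and FoxO targets fell about as often as all genes. Irs1, the adaptor that couples the insulin receptor to PI3 kinase, gave 369.9 and 376 at time 2 and 1840.2 and 1738 at time 0 (-2.17 ± 0.07, adjusted p = 1.9e-17). Time 0 replicates 3 and 4 were lower (869 and 915), and against them the difference was -1.19. Its relative Irs2 rose by 0.44 ± 0.09. Pik3r1, the regulatory subunit of PI3 kinase, fell by 0.52 ± 0.10 and Foxo1 by 0.37 ± 0.08. Genes that FoxO factors are known to raise went both ways: Txnip (326 and 291 against 936 and 921, -1.50 ± 0.08) and Ccng2 (-0.72 ± 0.08) fell, whereas Gadd45a (0.57 ± 0.11) and Bcl2l11 (0.40 ± 0.08) rose. One of several other Foxo1 probe sets gave 0.11. In the whole list 6 of 26 tested genes rose and 7 fell, shares of 23.1% and 26.9% beside 8.73% and 23.7% of all tested genes (median -0.04). With pairs as a random block 0 rose and 4 fell, so the rises of Irs2, Gadd45a and Bcl2l11 did not pass in it.

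Ligands and effectors of BMP and TGF-beta signalling changed in part. The ligand Bmp4 stood at 408 and 372 at time 2 and 1804 and 1779.7 at time 0 (-2.11 ± 0.08, adjusted p = 7.6e-17). The nuclear corepressor Tgif1 (-1.19 ± 0.08), the inhibitory Smad6 (-1.0 ± 0.09) and the signal carriers Smad2 (-0.58 ± 0.08) and Smad5 (-0.45 ± 0.09) fell. Id2, an inhibitor of differentiation, rose (1867 and 1819.7 against 543 and 534, 1.72 ± 0.10), and so did the ligand trap Fst (1.29 ± 0.08) and the decoy receptor Bambi (0.80 ± 0.07). The BMP targets Id1 (0.22 ± 0.10, adjusted p = 0.099) and Id3 (0.03 ± 0.08, adjusted p = 0.86) did not pass. The list held 6 genes that rose (20.7%) and 8 that fell (27.6%) among 29 tested, beside 8.73% and 23.7% of all tested genes. Its median was 0.03, and falls were about as frequent as among all genes. The counts were 3 and 3 with the random pair block and 13 and 10 against time 0 replicates 3 and 4.

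Ahr, the aryl hydrocarbon receptor, gave 155 and 148 at time 2 and 816 and 799 at time 0 (-2.20 ± 0.10, adjusted p = 3.6e-15), the largest fall among tested genes. A dimmer Ahr probe set gave -0.27. Its repressor and target Tiparp rose (1526 and 1701 against 422 and 406, 1.88 ± 0.08), and its target Cyp1b1 rose by 0.41 ± 0.08, with -0.14 against time 0 replicates 3 and 4. Socs5, a cytokine signalling inhibitor, fell (491 and 468 at time 2 against 1696 and 1760.4 at time 0, -1.78 ± 0.07), opposite to Socs1, Socs2 and Socs3. The Ras effectors and Rab5 activators Rin1 (-1.73 ± 0.09) and Rin2 (-1.18 ± 0.09) fell together, as did the chromatin proteins Asxl1 (-1.27 ± 0.08), Sin3a (-1.15 ± 0.08) and Zmynd8 (-1.16 ± 0.08). Csf1, the macrophage growth factor, fell by 1.13 ± 0.08, while the chemokine Cxcl1 (285 and 341 against 52.9 and 53.2) and the prostaglandin synthase Ptgs2 (1206 and 1242 against 366 and 315) rose. Time 0 replicates 3 and 4 had 155 and 165 for Cxcl1 and 127 and 94.9 for Ptgs2. Meox1, a homeobox gene, fell by 1.16 ± 0.08 from replicates 1 and 2, but stood at 153 and 162 at time 2 and 142 and 154 in time 0 replicates 3 and 4, a difference of 0.07.

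Genes of amino acid supply and of mitosis fell more often than all genes in the fit of replicates 1 and 2. 14 of 27 tested genes of amino acid supply and the ATF4 response fell and 2 rose (median -0.20). Trib3, a pseudokinase that binds Akt, gave 224 and 275 against 727 and 768 (-1.48 ± 0.09), and the glutathione-degrading Chac1 219.8 and 229.7 against 636 and 635 (-1.38 ± 0.08). The stress factor Ddit3 fell by 0.85 ± 0.07 and Atf4 itself by 0.38 ± 0.07. Of 25 tested mitosis genes 15 fell and 0 rose by limma (0 at an unadjusted p under 0.05), with a median of -0.27 and the largest falls in the kinases Plk1 (-0.61 ± 0.08), Ttk (-0.54 ± 0.10) and Aurka (-0.52 ± 0.09). In DNA replication, the licensing factor Cdt1 gave 409 and 422 against 925 and 901 (-1.08 ± 0.07). In that list 20 of 29 tested genes (69.0%, beside 67.6% of all genes) did not pass (median -0.15). Other Cdt1 probe sets gave -0.89 and 0.08. Wnt pathway genes fell in 8 of 20 tested and rose in 1, with the receptors Fzd7 (-0.77 ± 0.10) and Fzd2 (-0.73 ± 0.08) lowest and a median of -0.17. D cyclins, E cyclins and their kinases fell in 2 of 14 tested (median -0.11). Against the 23.7% of all tested genes that fell, the share was 60% for mitosis genes, 51.9% for the amino acid list and 40% for the Wnt list. It was 27.6% for DNA replication and 14.3% for the cyclins and their kinases. Under the random pair block the mitosis list had 2 falls, the amino acid list 4, DNA replication 2 and the Wnt list 1. Against time 0 replicates 3 and 4 the falls numbered 25, 9, 23 and 9 in the same order, and 8 genes of the amino acid list rose.

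The remaining lists held smaller or mixed changes. They are to be read beside the 8.73% of all tested genes that rose and the 23.7% that fell. Of the chemokine and NF-kB targets 4 rose and 2 fell among 14 tested (median -0.01), and Nfkbia, the inhibitor that NF-kB induces, gave -0.03 ± 0.09 (adjusted p = 0.82). Among p53 targets and cell cycle inhibitors 7 of 19 rose, led by the antiproliferative genes Tob2 (1.61 ± 0.08) and Btg2 (1.27 ± 0.09), and 6 fell, led by the CDK inhibitor Cdkn2b (-0.84 ± 0.09), with a median of -0.08. Heat shock genes rose in 4 of 17 tested and fell in 1, with the co-chaperone Bag3 (1.49 ± 0.08) and the small heat shock protein Hspb1 (1.00 ± 0.08) highest and a median of 0.01. Ribosome biogenesis genes rose in 1 and fell in 4 of 30 tested, with Rrp1b the one that rose (0.81 ± 0.07) and a median of -0.05. Interferon-induced genes rose in 2 and fell in 1 of 8 tested (median 0.16). Growth factor receptors rose in 4 and fell in 6 of 19 tested (median -0.05), and prostaglandin genes in 3 and 1 of 6 (median 0.11). Matrix proteases, their inhibitors and hyaluronan synthases rose in 4 and fell in 2 of 18 tested (median 0.01). In the order of the lists above, the shares that rose were 28.6%, 36.8%, 23.5%, 3.33%, 25%, 21.1%, 50% and 22.2%. The shares that fell were 14.3%, 31.6%, 5.88%, 13.3%, 12.5%, 31.6%, 16.7% and 11.1%.

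Most of the large changes were smaller in the later wild type arrays. Differences at times 2, 6, 24 and 48 all refer to the same time 0 replicates 1 and 2, so they share those arrays and are given side by side. Nr4a1 stood at 3.54, 0.14, -0.17 and -0.12 at times 2, 6, 24 and 48, and Fos at 3.03, 0.57, 0.12 and 0.89. Nr4a1 was back near its time 0 level at time 6 and Fos at time 24, with Fos above it again at time 48. Klf4 went below its time 0 level, with 2.37, -0.75, -1.50 and -1.81. Mt2 held its rise to time 6 (3.04, 3.08, 1.95 and 1.20), Fkbp5 and Per1 stayed up to time 48 (1.81 and 1.84), and Ramp3 was higher at time 6 than at time 2 (3.54, 4.46, 1.10 and 1.22). Pmvk was up at times 2 and 6 and not later (2.84, 2.81, 0.13 and -0.69). Among genes that fell, Irs1 returned stepwise (-2.17, -1.03, -0.43 and -0.32), Txnip crossed to above time 0 (-1.50, -0.52, 0.23 and 0.48), and Trib3 fell further (-1.48, -1.61, -1.88 and -2.15).

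Of the 94 genes at least 2-fold higher at time 2, 31 were at least 2-fold higher at time 6, 16 at time 24 and 17 at time 48. Their median difference was 1.49 at time 2, 0.59 at time 6, 0.18 at time 24 and 0.31 at time 48. Of the 39 genes at least 2-fold lower, 12, 7 and 6 were so at times 6, 24 and 48. Since the genes were chosen at time 2, some return towards time 0 is built in.

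**Figure D4:**
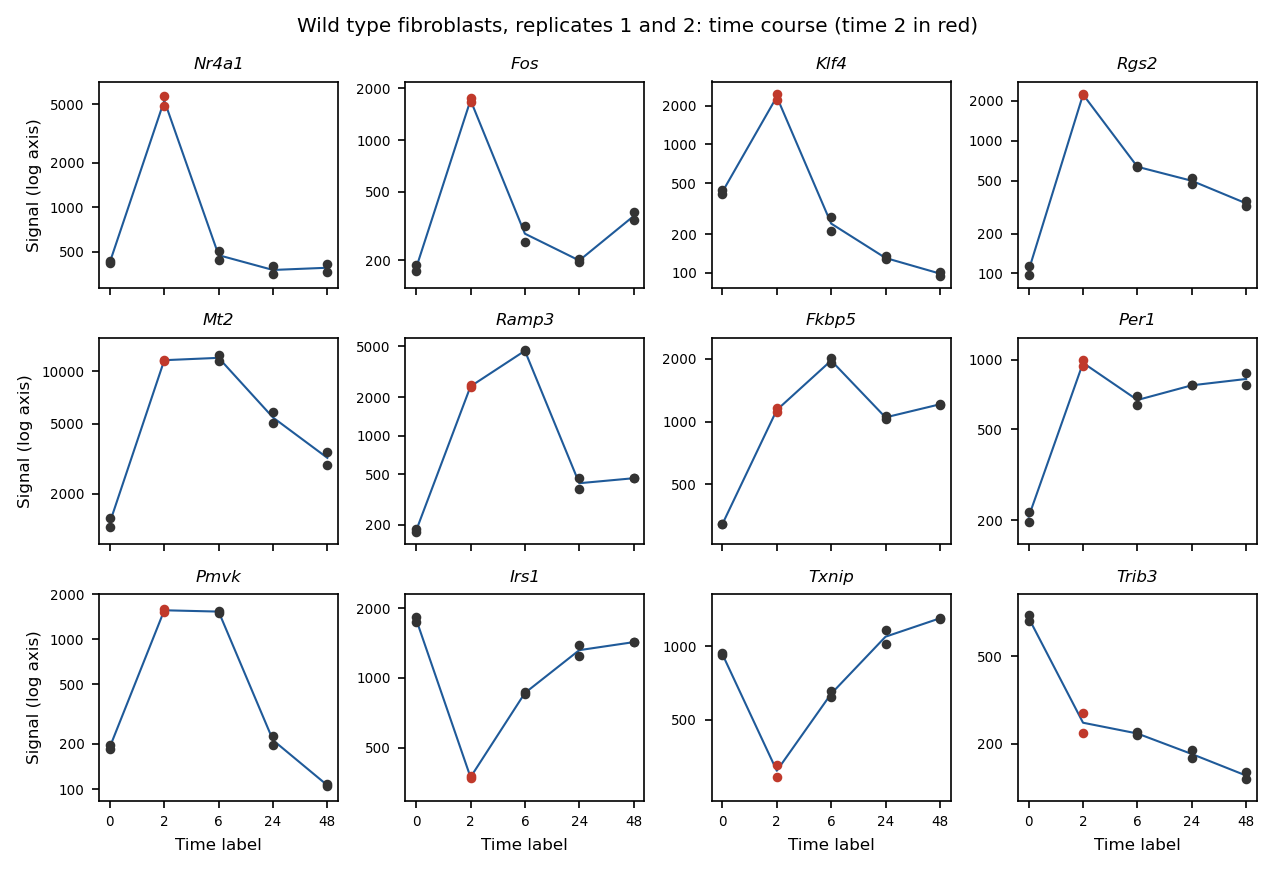
Signal on a log axis against time label, evenly spaced, for 12 genes in wild type fibroblasts, replicates 1 and 2, with points for arrays and lines for their mean. Nr4a1, Fos and Klf4 peak at time 2, Mt2 and Ramp3 stay high at time 6, and Irs1 is lowest at time 2.

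The same interval was read in PKBa-/- fibroblasts, and the difference between the changes in the 2 genotypes was tested in the same fit. Adamts1, Ramp3, Hoxa5, Pmvk and Mvk rose more in wild type, whereas the wild type change lay below that of PKBa-/- for Ccn2, Dusp6, Csf1 and Id1. For Nr4a2, Dusp1, Mt2, Fos, Cebpd, Per1 and Irs1 the difference between the genotypes did not pass, which does not show that they responded alike. For Dusp1 the wild type change minus the PKBa-/- change was -0.04 ± 0.10 (adjusted p = 0.85) and for Mt2 -0.05 ± 0.16 (adjusted p = 0.91). Over the whole array 678 of 7436 genes (9.12%) passed this test, 222 (2.99%) with the wild type change above the PKBa-/- change and 456 (6.13%) below. Of these 32.7% had the wild type change above on the deposited scale and 49.7% after quantile normalization. In all 311 genes rose in both genotypes, of 649 that rose in wild type and 778 in PKBa-/-. A further 922 fell in both, 52.3% of those that fell in wild type and 75.3% of those in PKBa-/-. Of 94 genes at least 2-fold higher in wild type, 82 (87.2%) also rose in PKBa-/-, beside 10.5% of all tested genes, and 2 fell. Of the 39 at least 2-fold lower, 34 (87.2%) also fell there, beside 16.5%, and 2 rose. The test of the difference passed for 62 and 23 of these genes. In PKBa-/- 11 of 18 cAMP response genes rose and 2 fell by limma. Of 18 glucocorticoid targets 10 rose and 0 fell, and of 25 mitosis genes 0 rose and 18 fell. The random pair block left 44 genes whose changes differed.

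Adamts1 had the largest difference among tested genes. It stood at 2367 and 2803 at time 2 and 209 and 205 at time 0 in wild type, and at 852 and 855 at time 2 and 1890.1 and 1691 at time 0 in PKBa-/-, a difference of changes of 4.49 ± 0.12 (adjusted p = 1.4e-18). In PKBa-/- cells Adamts1 was already bright at time 0, while in wild type it was not. Ramp3 had 138 and 126 at time 2 and 122 and 100.4 at time 0 in PKBa-/- cells, so that its rise was larger in wild type by 3.34 ± 0.13 (adjusted p = 1.7e-15). Hoxa5 had 64.6 and 76.2 at time 2 and 109 and 105 at time 0 in PKBa-/- (difference of changes 3.02 ± 0.14). Pmvk (2.35 ± 0.12), Has1 (2.08 ± 0.14), Dgat1 (2.05 ± 0.12), Mvk (1.91 ± 0.11), Rgs2 (1.89 ± 0.13) and Slc25a25 (1.47 ± 0.13) also rose more in wild type. Ahr fell in wild type, and its change lay below that of PKBa-/- by 1.94 ± 0.14 (adjusted p = 1.9e-10).

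For other named genes, which come from several lists, the wild type change lay below that of PKBa-/-. Ccn2, a matricellular target of the serum response factor and YAP, had 1933 and 2181 at time 2 and 2711 and 2984 at time 0 in wild type, and 2557 and 2566 at time 2 and 388 and 436 at time 0 in PKBa-/- (difference of changes -3.01 ± 0.15, adjusted p = 4.0e-13). Its level at time 0 was thus lower in PKBa-/- cells, and at time 2 the genotypes lay closer together. The wild type difference of Ccn2 was -0.46, and 0.44 against time 0 replicates 3 and 4. Dusp6 had 279 and 278 at time 2 and 262 and 259 at time 0 in wild type, and 938 and 895 at time 2 and 128 and 145 at time 0 in PKBa-/- (-2.41 ± 0.12, adjusted p = 2.1e-13). Csf1 had 1124 and 1256 at time 2 and 2527 and 2740.0 at time 0 in wild type, and 2724 and 2989 at time 2 and 1149 and 1139 at time 0 in PKBa-/- (-2.42 ± 0.11, adjusted p = 5.4e-14). Ccl2, a chemokine, differed by -2.38 ± 0.12, Id1 by -2.49 ± 0.14, Has2 by -2.31 ± 0.15, Myc by -2.16 ± 0.15, Jun by -1.50 ± 0.11, Klf10 by -1.71 ± 0.13 and Srf by -1.23 ± 0.13. Of the early transcription factor list 11 of 32 genes had a wild type change below and 3 above that of PKBa-/-. In the BMP and TGF-beta list the counts were 10 and 0 (1 at an unadjusted p under 0.05) of 29. The list of matrix proteases, inhibitors and hyaluronan synthases held 2 genes above and 4 below of 18 tested. That of sterol and fatty acid synthesis held 2 and 3 of 25. Of all tested genes 6.13% had a wild type change below and 2.99% above. Egr1 differed by -0.54 ± 0.12 (adjusted p = 0.0049). Both genotypes are represented by 1 replicate pair at time 2, and whether the difference follows the genotype or those cultures cannot be told apart.

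**Figure D5:**
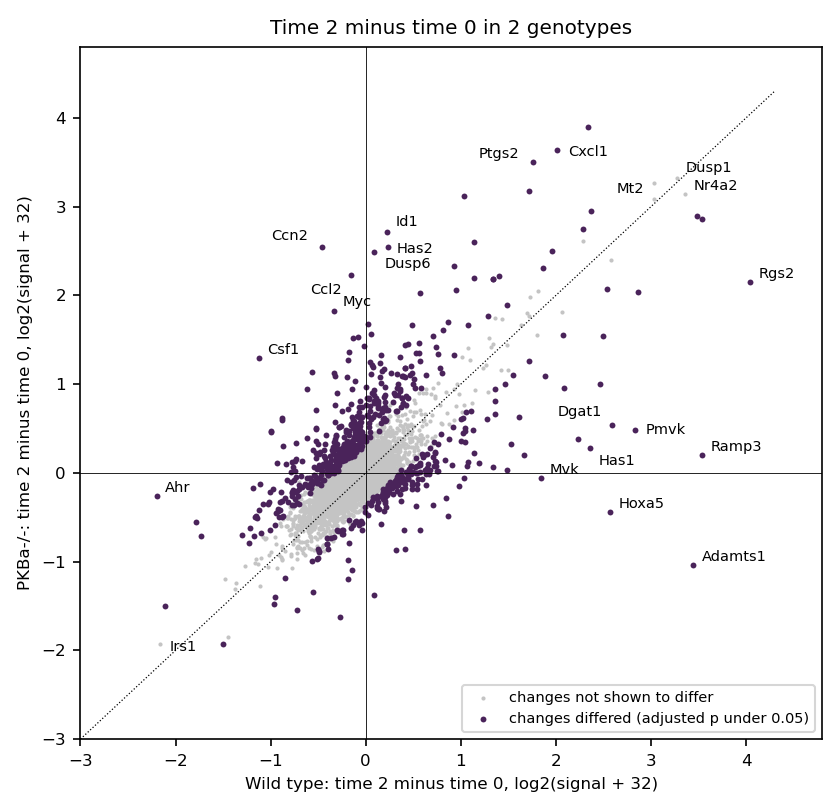
Each point is 1 of 7436 tested genes, with time 2 minus time 0 in wild type on the horizontal and in PKBa-/- on the vertical axis, both as differences of log2(signal + 32). Dark points are the 678 genes whose 2 changes differed by the test; Adamts1 lies at 3.45 in wild type and -1.04 in PKBa-/-, Ccn2 at -0.46 and 2.55, and Dusp1 near the diagonal at 3.28 and 3.32.

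Time 0 replicates 3 and 4 gave a partial check, since the time 2 arrays are the same. Of the 649 genes that rose, 603 (92.9%) were also higher at time 2 than in those arrays. Of the 1763 that fell, 1563 (88.7%) were also lower. Among genes changed at least 2-fold, 93 of 94 and 38 of 39 kept their direction, and 76 and 26 were again at least 2-fold apart. The 2 pairs of time 0 arrays themselves differed at least 2-fold in 113 genes, beside 133 between time 2 and time 0.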

How the data were processed

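RNA of each sample was labelled from 8 µg of total RNA and hybridised to 1-colour Affymetrix arrays, per the labels. The authors deposited 1 linear intensity per probe set and array (22690 probe sets, 36 arrays). How probes were summarised and scaled is not given in any source used here, so a scaling error would shift all genes of an array. Of the probe sets 20380 had 1 gene in the platform annotation, 691 had several, 1555 had none and 64 were controls; the first gave 12393 genes, each read from the brightest of its probe sets.

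The analysis used log2(signal + 32). Genes in the lowest 40% by mean over all arrays were not tested, which left 7436. limma 3.58.1 in R 4.3.3 was fitted to the 20 arrays of replicates 1 and 2 (10 group means, 10 residual degrees of freedom), with Benjamini-Hochberg adjustment over all tested genes. The fit was tested on simulated data with independent arrays and no replicate pairs, so that test cannot show how pairs affect the calls. The number of arrays limits the precision. The members and gene lists were chosen with earlier results of these data known. Named by rule were the 20 highest and 20 lowest differences that passed without overlap between times, up to 5 passing members per list, the 8 smallest p for the genotype difference, Akt1 and fibroblast markers; list members that did not pass, smaller changes and other genes were named after their values were seen. Same-numbered arrays of times 2 and 0 correlated in their deviations at 0.122 in wild type and 0.119 in PKBa-/-, so the numbers were not taken to pair arrays. Alternatives changed the offset, filter, probe set rule, scaling, variance model, blocks, arrays fitted and time 0 pair, or left out 1 array.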

Additional observations from a re-analysis of the deposited data

Results flagged for a closer look

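Several genes changed differently in the 2 genotypes by at least 4-fold and by limma's test of the difference itself. The wild type change lay above that of PKBa-/- for Adamts1 (4.49), Ramp3 (3.34), Hoxa5 (3.02), Pmvk (2.35), Has1 (2.08) and Dgat1 (2.05). It lay below for Ccn2 (-3.01), Id1 (-2.49), Csf1 (-2.42), Dusp6 (-2.41), Ccl2 (-2.38), Has2 (-2.31), Myc (-2.16) and Phlda1 (-2.09, higher in wild type too, and the gene of a pleckstrin-homology protein).

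Among the 4 wild type time 0 arrays, a single array lay apart from the other 3 for some named genes. Chance alone does so in about 1 in 20 groups of 4 independent arrays, whereas these arrays fell into 2 replicate pairs. The rate for such pairs was not computed. The gap to the nearest array over the whole range was 0.855 for Chac1, 0.945 for Ddit3, 0.911 for Fos, 0.902 for Nr3c1 and 0.916 for Pik3r1. The ranges were narrow: Fos had 172 and 188 in replicates 1 and 2 and 187 and 187 in replicates 3 and 4, and Ddit3 803 and 807 and 807 and 724.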

How the results depend on the processing

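The count of genes moved with the fit, while of 133 genes past 2-fold 126 still passed in the same direction with pairs as a random block and 131 against time 0 replicates 3 and 4. In wild type the count of 2412 genes (649 higher, 1763 lower) became 1331 (341 and 990) with all 36 arrays in group means, 408 (160 and 248) with pairs as a random block, and 3629 (1393 higher) against time 0 replicates 3 and 4, where 162 rose and 93 fell at least 2-fold. Without the filter 1016 rose, as more genes were tested, and after quantile normalization 974. Leaving out 1 array gave 1669 to 2305 genes, 437 to 608 higher and 1197 to 1697 lower. The genotype difference (678 genes, 222 above and 456 below) became 167 (51 and 116) with group means, 44 (16 and 28) with the random block, 2414 (900 and 1514) with time 0 replicates 3 and 4, and 144 above with group and pair means. Leaving out 1 array gave 436 to 901 genes, 133 to 276 above and 292 to 625 below, lowest without wild type time 0 replicate 1 (436) and PKBa-/- time 2 replicate 2 (437), and with 303 below without wild type time 2 replicate 1. The causes were not tested. With the replicate number as a block, 2375 and 667 genes passed and no named gene changed its call (no collagen chain gene passed as lower). A turned direction was counted only where the gene passed in the main fit or in the alternative. Against time 0 replicates 3 and 4 this held for Ccn1 (0.43), Ccn2 (0.44), Cyp1b1 (-0.14), Dusp6 (-0.31), Hmgcs1 (0.0720), Hmox1 (-0.25), Id3 (-0.50), Meox1 (0.0737), Socs2 (-0.67), Spry1 (0.0131) and, for the genotype difference, Mt2 (0.46). Over 145 named genes in wild type, 2497 of 2605 alternative values kept their side of the threshold without a turn counted in this way. Genes that passed in neither fit may have changed sign among them. In 79 values the gene no longer passed, 40 of them with the random block. Signal over background limits the dim genes, which were not tested.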

Other observations

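Further genes, outside the lists and chosen after their values were seen, moved with the response. Procr, the receptor of activated protein C, had 1812 and 1968 at time 2 and 371 and 383 at time 0 (2.23 ± 0.10). Hbegf, a membrane-bound ligand of the EGF receptor, had 1037 and 1061 against 251 and 303 (1.81 ± 0.10), alongside the rise of Errfi1, the inhibitor of that receptor. Sphk1, which makes sphingosine-1-phosphate, had 779.5 and 1006 against 248 and 253 (1.70 ± 0.09). Star, the carrier of cholesterol into mitochondria in steroid-making cells, had 469 and 399 against 119 and 110.0 (1.66 ± 0.10).

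Noct, a rhythmic phosphatase gene, rose to 843 and 840.1 at time 2, against 200.5 and 183 at time 0 (1.96 ± 0.07), Cirbp, a cold-inducible RNA-binding protein, to 569 and 609.9 against 222 and 207 (1.34 ± 0.09), and the long noncoding RNA Neat1 to 4421 and 4567 against 1783 and 1839 (1.30 ± 0.08). Vdr, the vitamin D receptor, rose by 1.14 ± 0.09 and the transcription factor Ets2 by 1.11 ± 0.09. The YAP-pathway gene Amotl2 fell (970.2 and 987 against 1978 and 1999, -1.0 ± 0.08). Hic1, a transcriptional repressor, fell against time 0 replicates 1 and 2 (-0.88 ± 0.09) and gave -0.11 against replicates 3 and 4.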
